A study of Mus musculus with 6 samples.

Results

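The genes described here make cholesterol, sense it, move it and store or export it, together with the enzymes that make and desaturate fatty acids. The list held 39 genes, picked by name for their function with earlier results of these data known, among 17097 genes that a probe set of the array named. Of the 39, 32 had a probe set carrying their symbol alone, and each was read from the probe set with the highest mean. The other 7 (Pmvk, Acat2, Srebf1, Abca1, Nr1h2, Soat1 and Scd2) were not analysed here. The 32 fell into 16 enzymes of cholesterol synthesis, 5 genes of SREBP control and sterol transport inside the cell, 5 genes of LXR signalling, efflux and lysosomal export, and 6 genes of fatty acid synthesis and desaturation.

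RNA came from CD11c+ dendritic cells purified by flow cytometry from the spleens of C57Bl/6 mice. There were 3 wild-type samples and 3 knockout samples with the genotype Map3k7CreER, and each was hybridised to its own Affymetrix array. Tamoxifen had been given in vivo for 3 days in both groups, so the drug is common to them. The promoter behind the Cre, the cells of the mouse in which Map3k7 was deleted, and the age of the mice are not given in the sources used here. The Cre and the deletion come together in the knockout group and cannot be told apart. The labels do not say whether the 3 samples of a group were separate animals, so p-values measure the spread between these samples, which may be technical. The level of Map3k7, the gene of the kinase TAK1, was 4.05 ± 0.41 (SD, n = 3) in the knockout group against 6.65 ± 0.06 in the wild-type group, and 3 of its 5 probe sets fell. Where the probes lie relative to the deleted exons was not analysed here. Of 16 conventional dendritic cell markers 13 were measured, and 0 of these were under the median level. Itgax, which encodes CD11c, read 10.82 to 11.31 over the 6 arrays. Within that list Itgam, which encodes CD11b, rose (1.31, limma adjusted p = 0.0466), and 0 fell. Xcr1, Irf8 and Zbtb46 lay below wild type without overlap and did not pass, at -0.81, -0.59 and -0.75, although 2 of the 4 probe sets of Zbtb46 were called. Flt3 and Dpp4 lay above wild type without overlap and did not pass, at 0.35 and 0.32. With Itgam, 3 markers lay above and 3 below, 23.1% on each side, where 10.6% of all genes did. The summed linear signal of the list was 46085 to 51597 in wild-type cells and 45804 to 46952 in knockout cells. Levels are log2 array values, on which 1 unit is a doubling. The median probe set had a mean level of 3.77, and a gene near it may be unexpressed.

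Cholesterol is built from acetyl-CoA through mevalonate and the isoprenoids to squalene, which is oxidised, closed into lanosterol and trimmed to cholesterol. When sterols run low in the endoplasmic reticulum, the retention proteins INSIG1 and INSIG2 let go of the carrier SCAP. SCAP then takes SREBP2 to be cleaved, and the cleaved factor switches on nearly the whole route. SREBP1 acts in the same manner on fatty acid synthesis, and the LXR receptors, which bind oxysterols, switch on efflux carriers and SREBP1 itself. SREBP proteins usually work with the factor NF-Y, which binds the CCAAT box close to the start site.

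Promoter windows from RefSeq (GRCm38.p6, 250 bases before to 50 bases after a start site) matched 30 of the 39 genes. Sqle, Fdps, Fdft1, Stard4, Fads1, Abcg1, Npc1, Scd1 and Scd2 had no window and were not searched, so the genes with the largest differences are mostly missing. The windows are shown because members that moved together could be compared for shared letters. Of those printed, 3 belong to synthesis genes that fell in knockout cells (Idi1, Msmo1 and Sc5d). Hmgcs1 is shown as the 1 member with an exact match to the SREBP element core, and Ebp as a synthesis gene that was not called. Each is written 5′ to 3′ on the strand of the gene. Capitals mark the NF-Y box CCAAT, written ATTGG where it lies on the opposite strand, and in Hmgcs1 also the SREBP element core TCACNCCAC.
Idi1 (chr13:8885356-8885655, + strand): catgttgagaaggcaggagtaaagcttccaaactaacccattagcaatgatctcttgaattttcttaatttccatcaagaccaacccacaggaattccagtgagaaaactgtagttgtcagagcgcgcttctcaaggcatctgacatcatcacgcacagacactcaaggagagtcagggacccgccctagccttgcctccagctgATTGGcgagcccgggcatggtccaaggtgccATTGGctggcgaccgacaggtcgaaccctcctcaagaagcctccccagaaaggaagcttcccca
Msmo1 (chr8:64733529-64733828, - strand): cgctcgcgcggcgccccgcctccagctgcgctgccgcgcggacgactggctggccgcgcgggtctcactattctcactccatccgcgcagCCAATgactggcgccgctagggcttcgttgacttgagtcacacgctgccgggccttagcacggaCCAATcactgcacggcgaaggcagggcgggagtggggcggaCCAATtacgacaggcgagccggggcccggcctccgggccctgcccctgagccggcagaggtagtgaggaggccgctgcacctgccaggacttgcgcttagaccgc
Sc5d (chr9:42264251-42264550, - strand): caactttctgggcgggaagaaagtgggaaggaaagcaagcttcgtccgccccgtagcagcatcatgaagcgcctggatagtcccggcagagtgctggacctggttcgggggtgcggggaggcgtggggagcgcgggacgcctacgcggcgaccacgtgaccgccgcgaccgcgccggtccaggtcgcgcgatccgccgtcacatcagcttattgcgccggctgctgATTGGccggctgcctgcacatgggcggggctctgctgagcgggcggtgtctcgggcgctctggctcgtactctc
Hmgcs1 (chr13:119690101-119690400, + strand): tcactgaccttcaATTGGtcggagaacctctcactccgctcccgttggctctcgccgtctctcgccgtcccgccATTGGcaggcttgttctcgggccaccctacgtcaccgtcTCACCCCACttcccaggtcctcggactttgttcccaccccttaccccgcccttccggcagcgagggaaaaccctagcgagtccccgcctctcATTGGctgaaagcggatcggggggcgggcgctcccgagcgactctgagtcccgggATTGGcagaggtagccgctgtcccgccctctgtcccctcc
Ebp (chrX:8193463-8193762, - strand): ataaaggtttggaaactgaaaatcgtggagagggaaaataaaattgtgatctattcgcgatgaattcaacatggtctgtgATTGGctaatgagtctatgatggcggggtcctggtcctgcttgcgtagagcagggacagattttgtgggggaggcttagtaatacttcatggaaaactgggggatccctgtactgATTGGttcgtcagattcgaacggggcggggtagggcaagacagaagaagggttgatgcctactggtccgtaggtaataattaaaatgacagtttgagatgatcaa

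The NF-Y box, searched on both strands, was in a window of 14 of the 15 synthesis genes that had one, against 41.1% of the 27025 genes in the promoter table. Per window the shares were 77.8% of 18 and 37.4% of 32851. The box was in 4 of 5 SREBP control genes, 2 of 6 LXR and efflux genes and 1 of 4 fatty acid genes, which was Fasn. Among synthesis genes with a window, it was present in those that fell (Idi1, Msmo1 and Sc5d). It was also present in every measured one that was not called: Cyp51, Dhcr7, Ebp, Hmgcs1, Hsd17b7, Lss, Mvd, Mvk, Nsdhl and Tm7sf2. The synthesis gene without it was Acat2, which was not measured. Sqle and Fdft1, which also fell, could not be searched. In Idi1 it began at positions -45 and -14 from the start site, and in Msmo1 at -160, -96 and -55. The SREBP element core, searched only as the exact letters TCACNCCAC, was in 1 of 30 members, Hmgcs1, and in 1.44% of all genes in the table. Sites with other letters were not counted, so a window without the core may still hold an SREBP site. The LXR direct repeat (DR4), searched as GGTCA, any 5 bases and GGTCA again, was in 0 of the 41 windows of members and in 0.0761% of all windows. The boxes do not overlap the core in Hmgcs1. These are matches of letters, and no binding was measured.

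A subset of the cholesterol synthesis enzymes fell in knockout cells: Idi1, Fdft1, Sqle, Msmo1 and Sc5d. The largest differences lay in 4 consecutive enzymes, Idi1, Fdps, Fdft1 and Sqle, of which Fdps did not pass. Of the 16 measured enzymes 5 fell, 0 rose and 11 did not pass the test (limma, Benjamini-Hochberg adjusted p under 0.05 over 45037 probe sets). That is 31.2% lower, where 0.591% of all genes were called lower and 1.08% higher. At an unadjusted p under 0.05, 8 of the 16 enzymes were lower and 0 higher, where 8% and 8.41% of all genes were. The median difference, knockout minus wild type, was -0.44 for the 16 enzymes and -0.02 for all genes. The list was named for its function, and its fall was known before these genes were chosen, so the count describes and does not test the pathway.

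**Figure D1:**
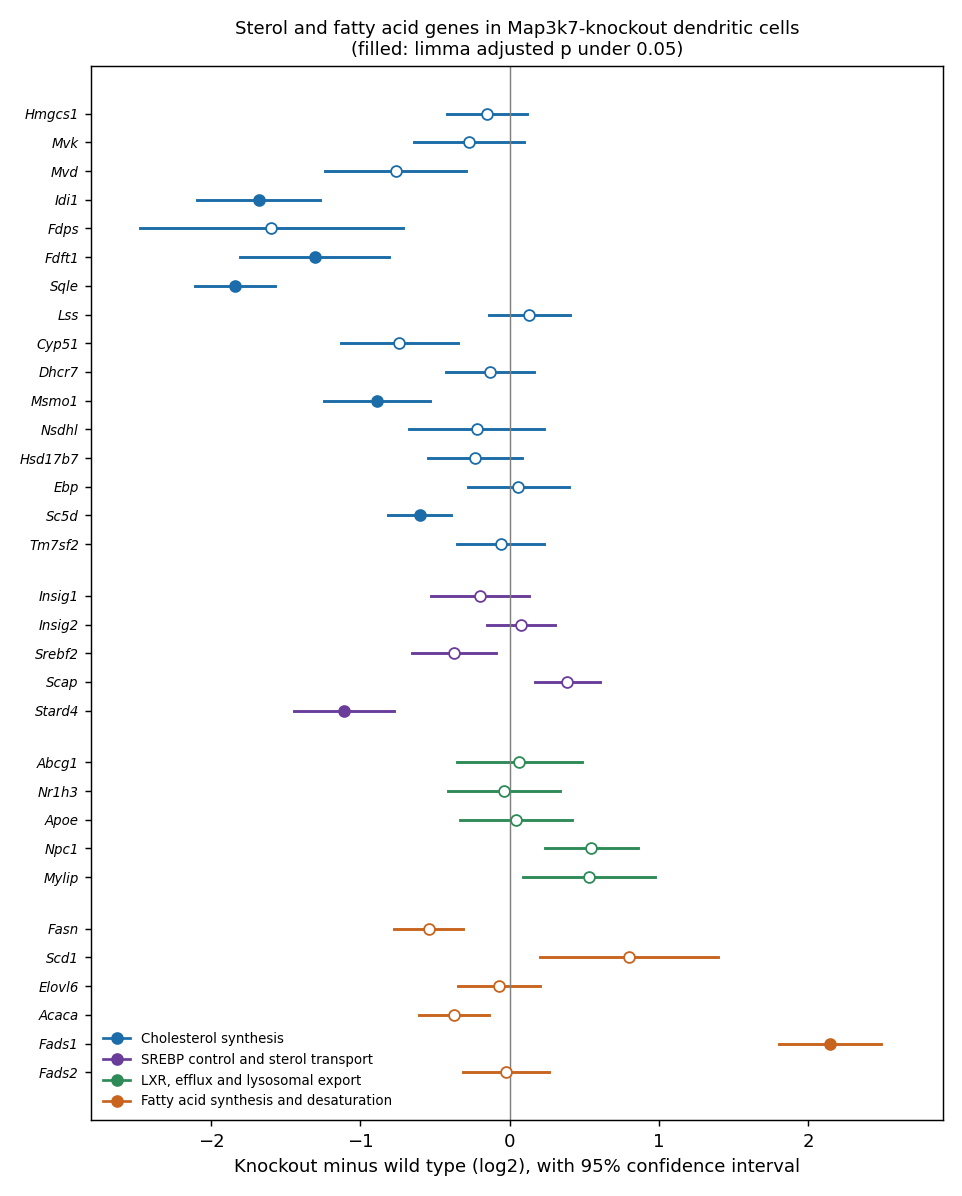
Difference in log2 array value between knockout and wild-type cells (horizontal axis) for the 32 measured genes, coloured by role and listed in the order of the text. Bars are 95% confidence intervals of the limma fit on 3 against 3 arrays, and filled circles mark the 7 genes with an adjusted p under 0.05. Idi1, Fdps, Fdft1 and Sqle lie farthest to the left, between -1.84 and -1.31, and Fads1 alone lies far to the right, at 2.15.

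Sqle, squalene epoxidase, which performs the first oxygen-requiring step and is one of the slow steps of the route, read 6.29, 6.32 and 6.35 in wild-type cells and 4.66, 4.27 and 4.51 in knockout cells. The wild-type arrays lay close together and far above every knockout array. The fall of 3.58-fold had a 95% confidence interval of 2.96-fold to 4.31-fold (log2 difference -1.84, SE 0.12, limma adjusted p = 0.000634). Idi1, which interconverts the activated isoprene units, read 7.89, 7.72 and 7.89 against 6.40, 6.33 and 5.73. Again no arrays overlapped, and the lowest was knockout replicate 3. Its fall was 3.20-fold (log2 difference -1.68, SE 0.18, limma adjusted p = 0.00712), and its second probe set fell by 2.04. Sqle and Idi1 were still called whichever of the 6 arrays was dropped.

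The enzymes between these steps had differences of similar size but wider spread. Fdft1, squalene synthase, which commits isoprenoids to sterols, read 7.25, 7.76 and 6.82 in wild-type cells and 6.00, 6.06 and 5.85 in knockout cells. The groups did not overlap, and the spread lay in the wild-type arrays. It fell 2.47-fold (log2 difference -1.31, SE 0.22, limma adjusted p = 0.0366). Fdps, farnesyl diphosphate synthase, which supplies isoprenoids for sterols and for protein prenylation, read 8.81, 8.98 and 7.57 against 7.28, 6.94 and 6.35. Replicate 3 was the lowest array in both groups, and the groups still did not overlap. Its log2 difference of -1.59 (SE 0.38, 95% confidence interval -2.48 to -0.71) did not pass (limma adjusted p = 0.112). Without wild-type replicate 3 Fdps passed, at -2.04 (limma adjusted p = 0.0216). Fdft1 passed without wild-type replicate 3 and in none of the other 5 fits with 1 array left out, where its adjusted p ran up to 0.145 and its difference from -1.35 to -1.07.

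Among the enzymes that turn lanosterol into cholesterol, Msmo1 and Sc5d fell. Msmo1, the sterol methyl oxidase, read 7.44, 7.21 and 6.91 in wild-type cells and 6.43, 6.35 and 6.12 in knockout cells, without overlap. It fell 1.85-fold (log2 difference -0.89, SE 0.15, limma adjusted p = 0.0417). Sc5d, the sterol desaturase near the end of the route, read 7.05, 6.89 and 7.01 against 6.36, 6.36 and 6.42. Both groups were tight, and the fall was small, at 1.52-fold (log2 difference -0.60, SE 0.09, limma adjusted p = 0.0278). Msmo1 passed without wild-type replicate 3 and in none of the other 5 fits with 1 array left out, where its difference ran from -0.95 to -0.76. Sc5d lost its call whichever of the 6 arrays was dropped, with differences of -0.65 to -0.57 and adjusted p of 0.0544 to 0.133. As the mean of its 3 probe sets, the other 2 of them dim, Sc5d stood at -0.19 (limma adjusted p = 0.282), and Msmo1, with 1 dim probe set of 2, stood at -0.49 (limma adjusted p = 0.0755).

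Cyp51, lanosterol demethylase, did not pass, although every knockout array (6.56, 6.05 and 6.39) lay below every wild-type array (7.27, 6.79 and 7.16). Its log2 difference was -0.74 (SE 0.17, limma adjusted p = 0.101). Mvd, which decarboxylates mevalonate diphosphate, stood at -0.76 (SE 0.20, limma adjusted p = 0.15) and likewise did not overlap. In all, 8 of the 16 enzymes had every knockout array below every wild-type array, which is 50% where 10.6% of all genes did, and 0 had the reverse.

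The remaining 8 enzymes overlapped between groups. Ebp, the sterol isomerase, read 9.06, 9.14 and 8.67 in wild-type cells and 9.14, 9.06 and 8.85 in knockout cells, a difference of 0.06 with a 95% confidence interval of -0.28 to 0.40. That interval leaves out a fall of the size seen in Sc5d. Nsdhl, a partner of Msmo1 in demethylation, read 7.85, 8.18 and 7.48 against 7.90, 7.50 and 7.45, a difference of -0.22 (95% confidence interval -0.67 to 0.23) within its spread. Mvk (mevalonate kinase), Dhcr7 (which makes the final reduction to cholesterol), Hsd17b7 (the ketone reductase of demethylation) and Tm7sf2 (a sterol reductase) had differences between -0.27 and -0.06. The probe sets of Hmgcs1 and Lss, at means of 3.55 and 3.34 in wild-type cells, lay under the median level and carry little information about these genes. Mouse Hmgcs1 makes the precursor of mevalonate, and Lss closes the sterol ring.

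**Figure D2:**
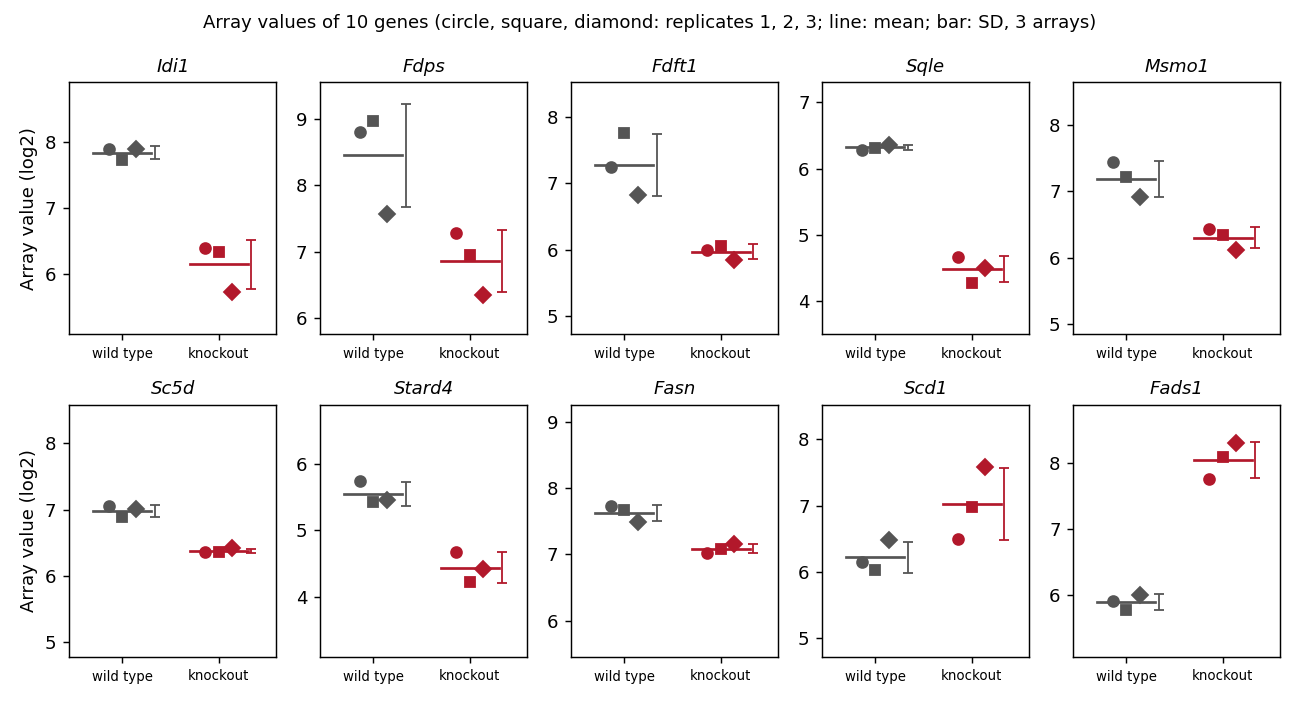
Array values (log2, vertical axis, each panel spanning the same number of units) of 10 genes in 3 wild-type and 3 knockout samples. Symbols are replicates, lines are means and side bars are SD over 3 arrays; Sqle and Fads1 are tight within groups, whereas Fdps ranges from 7.57 to 8.98 among wild-type arrays.

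Of the 5 control genes measured, 1 fell, 0 rose and 4 did not pass. Stard4, a soluble carrier that returns cholesterol to the endoplasmic reticulum and is itself an SREBP2 target, read 5.75, 5.43 and 5.46 in wild-type cells and 4.68, 4.22 and 4.41 in knockout cells. All knockout arrays lay well below all wild-type arrays. It fell 2.15-fold (log2 difference -1.11, SE 0.14, limma adjusted p = 0.0147), and its other 2 probe sets stood at -0.97 and -1.02. Stard4 was the 1 of 5 control genes called (20.0%, where 0.591% of all genes were called lower). It did not pass without wild-type replicate 1 (-1.01, limma adjusted p = 0.0726), wild-type replicate 2 (-1.16, limma adjusted p = 0.0544) or knockout replicate 2 (-1.001, limma adjusted p = 0.0769).

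Srebf2, which encodes SREBP2, read 8.49, 8.75 and 8.84 in wild-type cells and 8.25, 8.26 and 8.46 in knockout cells. The groups came close without overlapping. The difference of -0.37 (SE 0.12) did not pass (limma adjusted p = 0.241), and its interval of -0.65 to -0.09 does not reach the fall of Idi1 or Sqle. Scap read 8.58, 8.75 and 8.60 against 9.04, 8.97 and 9.09, with knockout arrays above wild-type arrays. Its difference of 0.39 (SE 0.09) did not pass either (limma adjusted p = 0.118).

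Insig1, a retention protein whose gene is a classical SREBP target, did not pass. It read 7.22, 6.73 and 6.76 in wild-type cells and 6.68, 6.72 and 6.73 in knockout cells, so that 5 of the 6 arrays lay close together and wild-type replicate 1 stood above them; the groups met almost exactly. The difference was -0.20 with a 95% confidence interval of -0.53 to 0.13 (limma adjusted p = 0.678). Its paralogue Insig2 stood at 0.08 (95% confidence interval -0.15 to 0.31). The difference between Insig1 and the enzymes was not tested.

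No gene of LXR signalling, efflux or lysosomal export passed. Of the 5 measured, 0 were called in either direction by limma. At an unadjusted p under 0.05, 2 of the 5 were higher and 0 lower by limma, where 8.41% and 8% of all genes were. Npc1, which exports cholesterol from the lysosome, read 7.38, 7.12 and 7.59 in wild-type cells and 7.80, 7.997 and 7.93 in knockout cells. Every knockout array was above every wild-type array, and the difference was 0.55 (SE 0.13, limma adjusted p = 0.121). Mylip, an LXR target that marks the LDL receptor for degradation, read 8.55, 8.34 and 8.59 against 8.69, 8.94 and 9.46. The groups came close without overlapping, and the difference was 0.53 (SE 0.19, limma adjusted p = 0.291). These 2 make 40.0% of the 5 above wild type without overlap, where 10.6% of all genes were.

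The remaining 3 genes overlapped between groups. Abcg1, the carrier that moves cholesterol onto lipoproteins, read 9.64, 9.84 and 10.29 in wild-type cells and 9.91, 9.84 and 10.22 in knockout cells. Apoe, a secreted acceptor of cholesterol, read 9.54, 9.58 and 9.34 against 9.69, 9.73 and 9.18. Both overlapped throughout, with differences of 0.07 (95% confidence interval -0.35 to 0.48) and 0.04 (-0.33 to 0.42), which leave out a change of 2-fold in either direction. Nr1h3, which encodes LXR alpha, was dim at 4.48 in wild-type cells and stood at -0.04.

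Among the 6 fatty acid genes 1 rose and 0 fell. Fads1, the delta-5 desaturase that completes arachidonic acid and eicosapentaenoic acid, rose 4.43-fold, the largest difference among the 32 genes. It read 5.91, 5.78 and 6.01 in wild-type cells and 7.76, 8.08 and 8.29 in knockout cells. The groups were apart by well over a unit. The log2 difference was 2.15 (SE 0.15, 95% confidence interval 1.81 to 2.49, limma adjusted p = 0.000974), and Fads1 was still called whichever of the 6 arrays was dropped. Its second probe set was dim, at 3.68 in wild-type cells, and stood at -0.16. The mean of both rose by 0.99 (limma adjusted p = 0.0068). Fads1 was the 1 of 6 fatty acid genes called higher (16.7%, where 1.08% of all genes were), and 0 were called lower.

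Fads2, the delta-6 desaturase that acts before Fads1 in the same route, had 3 probe sets near the median level. Its representative read 4.16, 4.30 and 3.88 against 4.15, 4.02 and 4.11, a difference of -0.02 (limma adjusted p = 0.969). Its 95% confidence interval was -0.31 to 0.26. Near the median level a gene may be unexpressed and background compresses differences, so the interval does not bound the change of the transcript.

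Fasn, the fatty acid synthase, was the gene closest to the threshold without passing. It read 7.72, 7.66 and 7.49 in wild-type cells and 7.02, 7.07 and 7.16 in knockout cells, and no arrays overlapped. The log2 difference of -0.54 (SE 0.10, 95% confidence interval -0.78 to -0.31) had a limma adjusted p of 0.0535, while Msmo1, just inside, had 0.0417. Fasn passed after further quantile normalization (limma adjusted p = 0.0444) and with array weights (limma adjusted p = 0.0274). Acaca, acetyl-CoA carboxylase, which supplies its substrate, read 6.15, 6.31 and 6.15 against 5.77, 5.77 and 5.95. It also lay below without overlap, with a difference of -0.37 (SE 0.10, limma adjusted p = 0.156).

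Scd1, the stearoyl-CoA desaturase and a target of both SREBP1 and LXR, stood on the opposite side. It read 6.14, 6.03 and 6.48 in wild-type cells and 6.50, 6.98 and 7.58 in knockout cells. The lowest knockout array barely cleared the highest wild-type array, and knockout replicate 3 was the highest. The difference of 0.80 (SE 0.26, 95% confidence interval 0.20 to 1.40) did not pass (limma adjusted p = 0.233). Elovl6, which elongates saturated fatty acids, was dim and stood at -0.07.

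**Figure D3:**
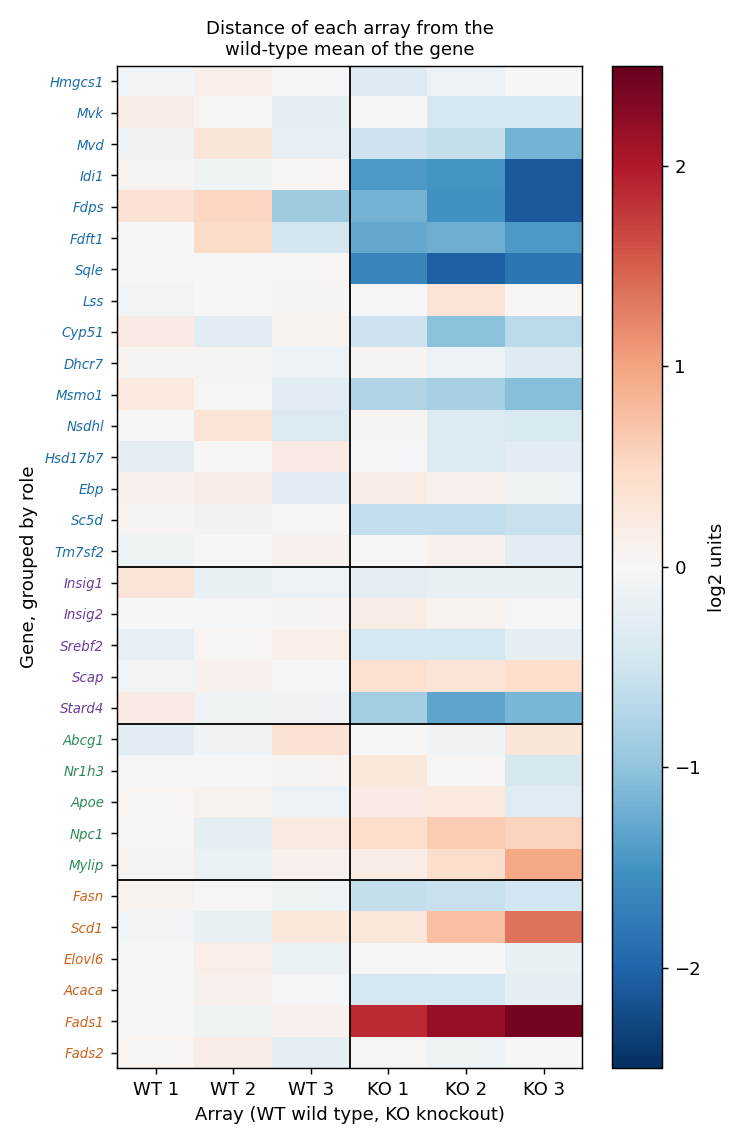
Distance of each array from the wild-type mean of the gene (colour, log2 units; blue lower, red higher) for the 32 genes in rows, with label colours and lines marking the 4 roles, and 6 arrays in columns. Idi1, Fdps, Fdft1 and Sqle form a blue block in all 3 knockout arrays, the LXR and efflux genes stay pale, and Fads1 is red in all 3.

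Set side by side, 14 of the 16 synthesis enzymes had a negative difference, 4 of the 5 LXR and efflux genes a positive one, and 4 of the 6 fatty acid genes a negative one. The medians were -0.44, 0.07 and -0.05, with -0.20 for the 5 control genes, and the fatty acid median was 0.045 without wild-type replicate 2. The mean level of the 16 enzymes was 6.28, 6.34 and 6.09 on the wild-type arrays and 5.74, 5.60 and 5.45 on the knockout arrays, so the knockout arrays were lower. The LXR and efflux genes averaged 7.91, 7.87 and 8.07 against 8.17, 8.20 and 8.18. The fatty acid genes averaged 5.78, 5.81 and 5.74 against 5.96, 6.09 and 6.25. That direction rests on Fads1: the other 5 fatty acid genes averaged 5.75, 5.81 and 5.68 against 5.60, 5.69 and 5.84, which overlap, with a difference of -0.04. Among knockout arrays, replicate 1 had the highest value of 11 of the 16 enzymes and replicate 3 the lowest value of 10. Wild-type replicate 3 was the lowest of its group for 8. No test was made between roles, since genes are not replicates.

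Markers of other cell populations and of the cell cycle were read on the same arrays, and their calls stand against 0.591% of all genes called lower and 1.08% higher. By unadjusted limma p under 0.05, 8% of all genes were lower and 8.41% higher. Without overlap, 10.6% of all genes lay below wild type and 10.6% above. Of 18 proliferation markers 17 were measured, all 17 had a negative difference and 2 fell (Mcm2 by 1.51 and Ccne2 by 0.89, limma adjusted p = 0.029 and 0.0106). By unadjusted limma p under 0.05, 13 of these markers were lower and 0 higher, and 10 (58.8%) lay below wild type without overlap. Their summed signal on the linear scale was 9892 to 11754 in wild-type cells and 6503 to 8891 in knockout cells, and 0 were under the median level. Of 9 erythroid markers 6 were measured and 1 fell (Hbb-b2, a globin), with sums of 666 to 2637 against 119 to 271 and Alas2 and Klf1 under the median level. All 6 had a negative difference, and 4 (66.7%) lay below wild type without overlap. The globin Hba-a1 had the largest difference, -3.57, and did not pass (limma adjusted p = 0.0713). Of 18 macrophage markers 17 were measured and 4 rose (Mrc1, Cd163, Cd5l and Mertk), with overlapping sums of 4535 to 4985 against 4385 to 6210 and Marco and Timd4 under the median level. By unadjusted limma p under 0.05, 8 macrophage markers were higher and 1 lower. Without overlap, 7 (41.2%) lay above wild type and 1 below. Of 8 monocyte markers 6 were measured and 0 were called by limma (3 lower and 1 higher at an unadjusted p under 0.05). Their sums were 8403 to 9599 against 6661 to 7253, with F13a1 under the median level. Cx3cr1 (-1.02), Treml4 (-0.93) and Nr4a1 (-0.28) lay below wild type without overlap. Ccr2 (0.57), Csf1r (0.28) and F13a1 (0.10) had positive differences with overlap. Of 10 neutrophil markers 8 were measured and 0 were called by limma (1 lower and 3 higher at an unadjusted p under 0.05). Their sums were 213 to 354 against 379 to 1485, with Camp and Cxcr2 under the median level. S100a8 stood at 2.28 and Csf3r at 0.49, each with every knockout array above wild type, and S100a9 at 1.53 with overlap. Mmp9 went the other way, at -0.77 with overlap. Camp, Ltf, Ngp and Cxcr2 were dim and stood between -0.14 and 0.15. Of the B, T, NK and plasmacytoid dendritic cell markers 0 were called by limma, and at an unadjusted p under 0.05 2 B cell markers were lower and 1 NK marker higher. The part of these populations in the sterol, desaturase and efflux values was not tested, and in sorted bulk cells fewer cells of a type and less RNA per cell cannot be told apart.

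**Figure D4:**
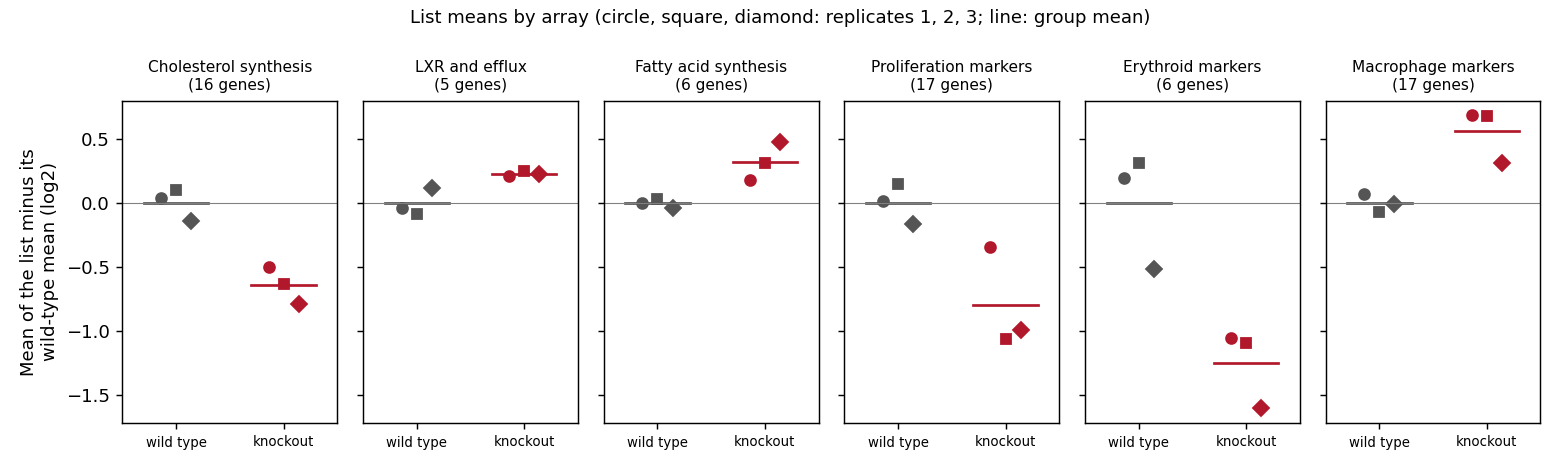
Mean log2 level of the measured genes of 6 lists on each array, minus the wild-type mean of the list (vertical axis). Symbols are replicates and lines group means; the synthesis list has all 3 knockout arrays below wild type, as do the proliferation and erythroid lists, and the macrophage list has them above.

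Genes of the same pathways outside the 39 were taken from a fixed list. Of 48 such genes 40 were measured, 1 rose, 0 fell and 39 did not pass, with a median difference of 0.02. The 1 that rose is 2.5% of the 40, near the 1.08% of all genes called higher. At an unadjusted p under 0.05, 8 were higher and 5 lower by limma, where 8.41% and 8% of all genes were. The gene that rose was Rxrb, an RXR subunit that pairs with LXR and other nuclear receptors. It read 8.69, 8.56 and 8.68 in wild-type cells and 9.14, 9.11 and 9.18 in knockout cells, without overlap. Its difference was 0.50 (SE 0.09, limma adjusted p = 0.0492), but it lost the call whichever of the 6 arrays was dropped, where the difference ran from 0.46 to 0.52 with adjusted p of 0.0889 to 0.172. Nceh1, which hydrolyses stored cholesterol esters, had the same difference of 0.50 and lay just outside (limma adjusted p = 0.0523). Both belong to the LXR and oxysterol group, in which 13 of 14 genes did not pass.

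In the sterol synthesis and isoprenoid group 0 of 5 passed, and the nearest were the sterol reductase and nuclear envelope protein Lbr (0.40, limma adjusted p = 0.231) and the mitochondrial thiolase Acat1 (-0.17, limma adjusted p = 0.661). In the group of SREBP processing and sterol uptake 0 of 8 passed. Npc2, the lysosomal partner of Npc1, stood at 0.36 (limma adjusted p = 0.16) with every knockout array above every wild-type array, and the lysosomal lipase Lipa at -0.35 (limma adjusted p = 0.313). In the fatty acid group 0 of 13 passed, and 6 of these were under the median level. Mid1ip1, which promotes the assembly of acetyl-CoA carboxylase, stood at -0.77 (limma adjusted p = 0.068), with knockout arrays at 6.32, 6.13 and 5.73 below wild-type arrays at 6.91, 6.85 and 6.73. Acss2, which makes acetyl-CoA from acetate, stood at 0.31 (limma adjusted p = 0.45).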

How the data were processed

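Total RNA of 6 samples was measured on Affymetrix 3' expression arrays. The deposited values are log2 intensities that the authors produced by RMA; the software, per the submitters' processing notes, was Expression Console 1.1 (Affymetrix). The log2 scale was read from the values, which span 2.58 to 13.9, with array medians of 3.77 to 3.81. RMA gives no detection call and quantile normalization forces equal distributions, and background compresses the folds of dim genes. Precision is limited by having 3 arrays a group. Of 45141 probe sets, 104 controls were left out. The platform annotation gave 28898 probe sets 1 symbol, 551 several and 15588 none; none was named from several.

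Differences (knockout minus wild type) were fitted with limma 3.58.1 in R 4.3.3 (lmFit, eBayes, no covariates), with Benjamini-Hochberg adjustment over 45037 probe sets. The step was tested on simulated data. Members, lists and tests were chosen with earlier results of these data known, so no p is adjusted over the list alone. Array values were given for called members and, per role, the 2 with the smallest p and the 2 with the highest mean, and for further members near the threshold chosen after their values were seen. Other pathway genes were named if called or among the 2 smallest p of their list. Same-numbered arrays deviated from their group means with correlations of 0.05, 0.13 and 0.32, and arrays of unlike number with -0.28 to 0.22. The labels do not say whether the numbers pair the arrays, and the main fit did not take them as pairs. Figures used matplotlib 3.10.9 in Python 3.11.15.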

Additional observations from a re-analysis of the deposited data

How the results depend on the processing

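The count of synthesis enzymes that fell (5) was 3 on the mean of the probe sets of each gene, 8 with the replicate block, and 2 to 5 with 1 array left out: 2 without wild-type replicate 1 or 2 or any knockout replicate, and 5 without wild-type replicate 3. The replicate block added Fdps, Mvd and Cyp51. The labels do not say whether the numbers pair the arrays, and not every array correlated best with its own number. A batch shared by number was not tested. For the control genes the count lower (1) ran from 0 to 1 with 1 array left out. For the fatty acid genes the count lower (0) was 1 after further quantile normalization, with array weights, on means of probe sets and at an adjusted p under 0.1, in each case Fasn. The median of the synthesis enzymes (-0.44) was -0.67 after leaving out dim probe sets (those below the overall median), where Hmgcs1 and Lss drop out, and -0.25 on means of probe sets. The median of the control genes was -0.28 with array weights and ran from -0.29 to -0.040 with 1 array left out, and that of the LXR and efflux genes ran from 0.073 to 0.25. The median of the fatty acid genes (-0.05) ran from -0.15 without wild-type replicate 3 to 0.045 without wild-type replicate 2, a change of sign. Of 510 values of single genes over the alternatives, 465 kept direction and side of the threshold, 22 no longer passed, 8 passed where the main value did not, and 15 changed sign, the last in 7 genes that were not called. With array weights Tm7sf2 was 0.020 and Nr1h3 0.034, and without probe sets ending in x or s Fads2 was 0.00209. With 1 array left out Ebp ran from -0.083 to 0.15, Tm7sf2 from -0.14 to 0.047, Abcg1 from -0.074 to 0.25, Nr1h3 from -0.18 to 0.14, Apoe from -0.054 to 0.22, Elovl6 from -0.16 to 0.018 and Fads2 from -0.14 to 0.071. Signal over background limits Hmgcs1, Lss, Nr1h3, Fads2, Tm7sf2 and Elovl6.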

Other observations

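In the RefSeq gene order Fads1 lies between Fads2 and Fen1, a nuclease of DNA replication, with Fads3 and Rab3il1 beyond Fads2 and Tmem258 beyond Fen1. These neighbours were chosen after the Fads1 value was seen. Fen1 stood at -0.59 (limma adjusted p = 0.189) with every knockout array below every wild-type array, and Tmem258, a subunit of the oligosaccharyltransferase, at -0.28 (limma adjusted p = 0.228). Fads3 stood at 0.21 (limma adjusted p = 0.458) and Rab3il1 at 0.31 (limma adjusted p = 0.631). Of the 5 neighbours measured, 0 were called by limma.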
